A study of Mus musculus with 34 samples.

Results

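The genes described here mark monocytes and interstitial macrophages: Adgre1, Fcgr1, Csf1r, Ccr2, Cx3cr1, Cd14, Itgam, Cd68 and Lyz2. They are a list of 9 genes, found on the array through the RefSeq accession printed for each probe; where a gene had several probes, the probe with the highest mean lung signal stood for it. Of the 9 genes, 8 were matched, by 14 probes in all, among 29304 genes or unnamed accessions that were bright enough to test and 17146 tested genes that carried a name. Cd68 matched no probe in the annotation used here and was not analysed. All 8 matched genes passed the filter on dim probes, which asked for a lung signal well above background on at least 3 arrays.

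Monocytes leave the bone marrow through the chemokine receptor Ccr2 and reach the lung by the blood, where those with much Cx3cr1 patrol the vessel wall. In the tissue they can become interstitial macrophages, which depend on signals through Csf1r, carry the surface protein F4/80 (Adgre1) and the high affinity Fc receptor (Fcgr1), and lie in the lung wall, apart from the alveolar macrophages of the airspace. Inhaled fibres and particles are known to draw monocytes into the lung, and the genes of this list are commonly read as a sign of that.

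RNA was measured in lungs of female C57BL/6 mice, of 5 to 7 weeks per the labels, on day 28 after a single intratracheal dose of a carbon nanotube material in 40 µl. There were 5 control mice. The 18 µg dose was given to 5 mice as NRCWE-043, 6 as NRCWE-044 and 3 as NRCWE-045, and the 54 µg dose to 5 mice as each of these materials. Per the labels every group had 5 mice, and what the controls received is not stated there. On each of the 34 arrays, 200 ng of lung RNA from random sections carried Cy5 and a universal reference RNA from 11 mouse cell lines carried Cy3. One of the controls is titled NRCWE-043 at 0 µg and has the treatment Control. All values below are log2 ratios of lung to reference signal, and a difference between groups is a difference of such ratios, so that the reference cancels. The p-values set a difference against the spread between these arrays, which were taken as 1 per mouse. In pieces of whole lung, fewer cells of a type and less of an RNA in each cell cannot be told apart.

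The arrays came from 6 slides with 1 scan day per slide, and controls were on slides 1, 2, 3 and 5. Between 50.8 and 68.46% of the probes of an array were well above background in lung, and no spot was saturated. Arrays of the same group correlated across probes at 0.908 to 0.97. The number of mice limits the precision: for 54 µg of NRCWE-043 against the controls, the 95% confidence interval of the difference ran from -0.26 to 0.17 for Csf1r and from -0.58 to 0.68 for Ccr2. Sftpc, the surfactant protein C gene that defines alveolar type 2 cells, had a mean lung signal of 449414, as a check of the labelled tissue.

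Fcgr1, Cx3cr1 and Ccr2 are shown with the bases before their transcript start, since their ratios ran together from array to array (values are given after the separate genes). Adgre1 also ran with Fcgr1 (r = 0.604 with slide means subtracted), but its promoter was not among those searched. The 250 bases upstream of each start are from RefSeq on GRCm38.p6, 5′ to 3′ on the gene's strand: Fcgr1 at chr3:96293970-96294219 on the minus strand, Cx3cr1 at chr9:120068297-120068546 on the minus strand and Ccr2 at chr9:124101933-124102182 on the plus strand. Capitals mark matches on either strand to GAGGAA, the core of the site of the myeloid factor PU.1, and to TTCNNNGAA, the GAS element bound by STAT dimers; no other search is marked.
Fcgr1: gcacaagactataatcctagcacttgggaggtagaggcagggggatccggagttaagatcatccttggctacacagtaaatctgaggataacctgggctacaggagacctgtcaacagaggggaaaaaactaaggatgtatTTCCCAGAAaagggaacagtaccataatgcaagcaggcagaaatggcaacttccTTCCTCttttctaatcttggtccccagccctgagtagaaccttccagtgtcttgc
Cx3cr1: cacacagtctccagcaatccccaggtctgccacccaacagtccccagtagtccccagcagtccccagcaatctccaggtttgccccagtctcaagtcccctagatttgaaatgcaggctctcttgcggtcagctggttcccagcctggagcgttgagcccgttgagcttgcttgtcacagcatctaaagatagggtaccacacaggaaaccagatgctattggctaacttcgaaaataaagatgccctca
Ccr2: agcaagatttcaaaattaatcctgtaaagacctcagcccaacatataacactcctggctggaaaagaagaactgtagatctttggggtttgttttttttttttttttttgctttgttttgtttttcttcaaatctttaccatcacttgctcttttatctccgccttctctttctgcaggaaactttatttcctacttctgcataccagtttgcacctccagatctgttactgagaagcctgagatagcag
The Fcgr1 stretch held TTCNNNGAA from base 109 to 101 before the start and the reverse complement of GAGGAA from base 55 to 50. The Cx3cr1 and Ccr2 stretches held neither. Of 32851 promoter stretches of this length, 23.3% held GAGGAA and 7.02% held TTCNNNGAA, which was searched for after the genes most like Fcgr1 had been seen. The longer PU.1 box GAGGAAGT (2.44% of all promoters), which contains GAGGAA, the C/EBP site TTGCNNAA (9.56%), the AP-1 site TGANTCA (6.75%) and the ETS core CCGGAA (12%) were in none of the 3. Of the other members searched, Itgam held GAGGAA at 2 places and Lyz2 held none of these letters. Cd68, which has a RefSeq entry but no matched probe, held GAGGAA from base 225 to 220, TTGCNNAA from base 43 to 36 and TGANTCA from base 149 to 143 and from base 24 to 18. In all, 3 of the 6 members searched held GAGGAA and 1 each held TTGCNNAA, TGANTCA and TTCNNNGAA. A match is a description of letters in this window.

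None of the 8 genes passed the test in any comparison. With limma and p-values adjusted over all 29304 units, 0 of 8 were called at either dose of any material against the controls, in the mean of the 3 materials at 54 or at 18 µg, or between 54 and 18 µg of any material; among all units the share called in each of those comparisons was 0%. Between materials at the same dose 0 of 8 were called as well, where the share of all units was 0.0102% for NRCWE-043 against NRCWE-044 at 18 µg, 0.43% for NRCWE-043 against NRCWE-045 at 18 µg, 0.00341% for NRCWE-043 against NRCWE-045 at 54 µg, and 0% in the other 3. The F test over the 7 groups called 0 of 8 against 0.0444% of all units; Itgam had the smallest adjusted p (limma, 0.22, from an unadjusted p of 0.00231), and for the other genes the adjusted p was 0.864 or more.

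At an unadjusted p under 0.05 a few members lay above the controls and 0 lay below them in all of the comparisons with the controls. At 18 µg the count was 0 of 8 for NRCWE-043 (1.65% of all units lay higher at that p), 0 of 8 for NRCWE-044 (1.62%) and 1 of 8, Itgam, for NRCWE-045 (5.04%). At 54 µg it was 3 of 8 for NRCWE-043, namely Adgre1, Fcgr1 and Cx3cr1 (2.52% of all units), 2 of 8 for NRCWE-044, namely Adgre1 and Fcgr1 (3.25%), and 1 of 8, Cx3cr1, for NRCWE-045 (2.02%). In the mean of the 3 materials it was 3 of 8 at 54 µg, again Adgre1, Fcgr1 and Cx3cr1 (2.85%), and 0 of 8 at 18 µg (1.84%). These comparisons share the 5 control arrays. The brightest Itgam probe ran with many other genes and hardly with the other Itgam probes (values are given with that gene), so it is uncertain that it measures Itgam, and every count, F test and call given for Itgam is that of this probe. The median difference of the 8 genes from the controls was 0.18 at 54 µg, with 7 of 8 above 0, and 0.14 at 18 µg, with 6 of 8 above 0, where the median of all units was -0.00 at 54 µg and 0.00 at 18 µg.

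**Figure D1:**
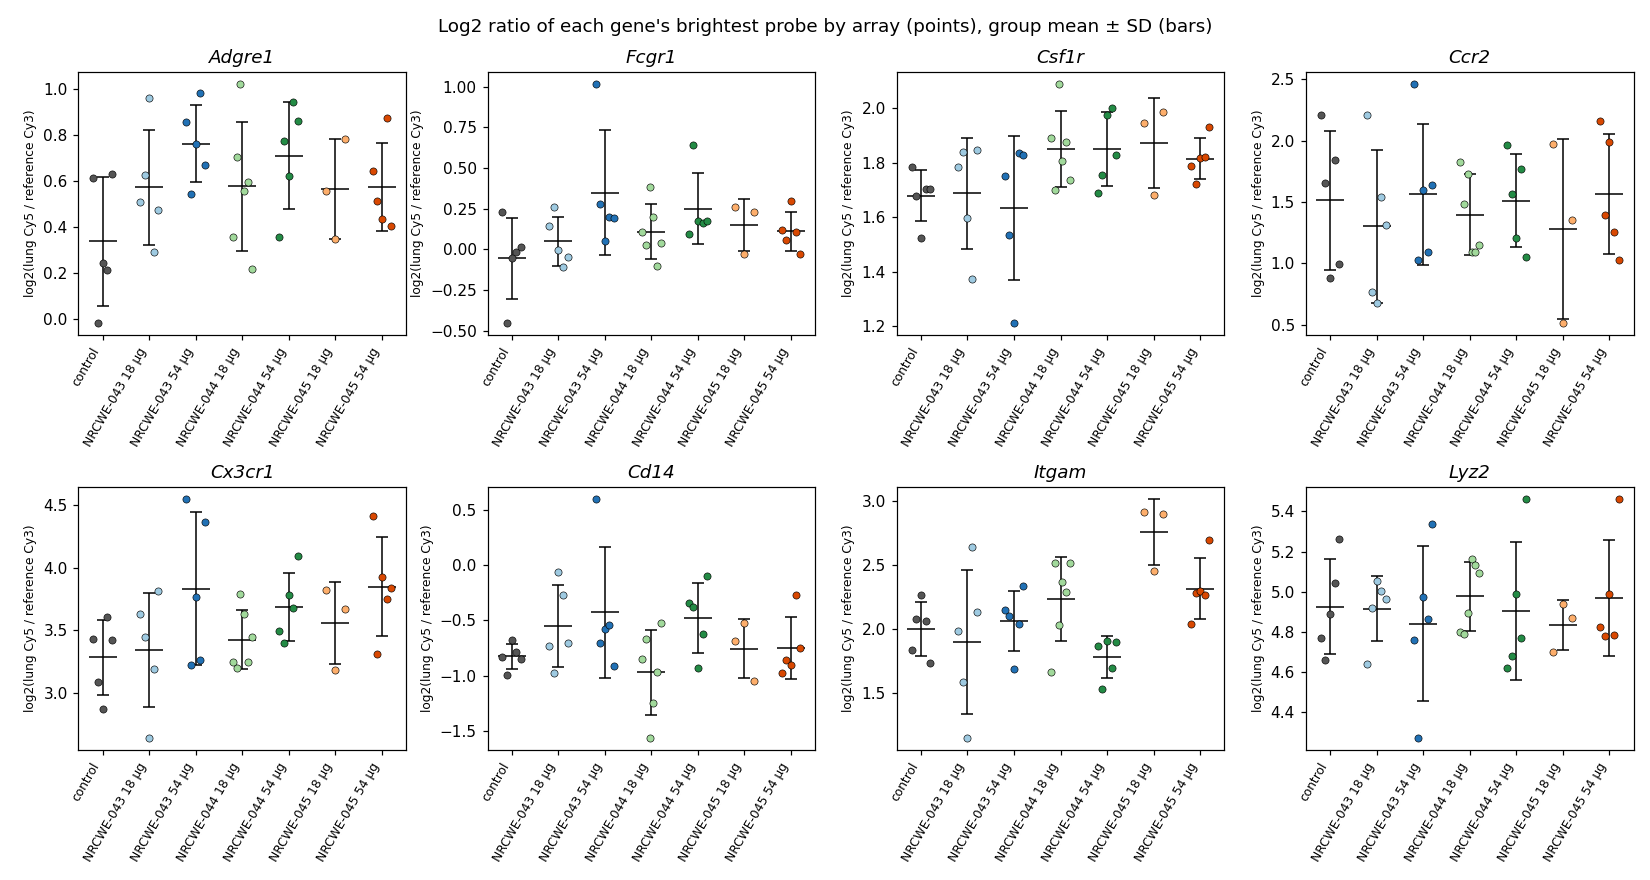
Log2 ratio of lung to reference RNA (vertical axis, own scale in each panel) for the brightest probe of the 8 matched genes in the control group and the 6 exposed groups (horizontal axis). Points are arrays and bars are the group mean ± SD; the 3 Itgam values at 18 µg of NRCWE-045 all lie above the 5 controls, and the Lyz2 groups lie over each other.

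Adgre1 encodes F4/80, the adhesion receptor by which mouse macrophages are usually recognised. Its log2 ratios in the controls were 0.61, -0.02, 0.25, 0.21 and 0.63. At 54 µg they were 0.86, 0.55, 0.76, 0.99 and 0.67 for NRCWE-043. For NRCWE-044 they were 0.36, 0.77, 0.62, 0.94 and 0.86. Of these, 4 of 5 and 3 of 5 lay above every control, so the groups overlapped. The values were 0.64, 0.52, 0.43, 0.88 and 0.40 at 54 µg of NRCWE-045. At 18 µg they were 0.51, 0.63, 0.96, 0.29 and 0.48 for NRCWE-043 and 0.56, 0.35 and 0.78 for NRCWE-045, and for NRCWE-044 they ran from 0.22 through a median of 0.58 to 1.02. The group means thus stood in the order NRCWE-043 at 54 µg (0.76 ± 0.17, SD, n = 5), NRCWE-044 at 54 µg (0.71 ± 0.23, n = 5), the other 4 exposed groups (0.56 to 0.58) and the controls (0.34 ± 0.28, n = 5), and no step between neighbours was larger than their SD.

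Against the controls Adgre1 lay 0.43 higher (SE 0.14; a 1.34-fold ratio) at 54 µg of NRCWE-043, with an unadjusted p of 0.00626 and an adjusted p of 0.676 in limma. At 54 µg of NRCWE-044 it lay 0.37 higher (95% confidence interval 0.08 to 0.67; limma adjusted p 0.731) and at 54 µg of NRCWE-045 0.24 higher (-0.06 to 0.53; limma adjusted p 1). The 3 materials at 18 µg gave 0.24, 0.24 and 0.23, and each rested partly on 1 array. Without replicate 3 of the respective group the values were 0.14, 0.15 and 0.12. For NRCWE-044 and NRCWE-045 that array was on slide 4, which held no controls. The 5 arrays of slide 4 ran from 0.78 to 1.02 (mean 0.92), all above every control. They included the highest array of each 54 µg group. Means of the other slides lay between 0.46 and 0.61. Slides accounted for 36.7% of the variance of Adgre1 and groups for 26.5%. The medians of all tested units were 34.5% and 16.1%. In the mean of materials the difference was 0.35 at 54 µg (0.10 to 0.59; limma adjusted p 0.699) and 0.23 at 18 µg (-0.01 to 0.48; limma adjusted p 0.999). Without control replicate 2, the lowest control, the mean at 18 µg was 0.14 and the difference at 54 µg of NRCWE-045 was 0.15. Every exposed group mean was above the control mean, and none of the differences passed the test. The dimmer of the 2 Adgre1 probes gave 0.31 at 54 µg and 0.20 at 18 µg. At 18 µg it was uneven over the materials, with 0.46 for NRCWE-043 (SE 0.15; limma unadjusted p 0.00514, adjusted p 0.98), 0.14 for NRCWE-044 and 0.01 for NRCWE-045. The probes correlated over the 34 arrays at r = 0.402 as measured and 0.786 with each slide's mean subtracted.

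Fcgr1 encodes the high affinity receptor for IgG, a marker shared by monocyte-derived and resident macrophages. The controls had log2 ratios of 0.23, -0.45, -0.05, -0.01 and 0.01. The 54 µg group of NRCWE-043 had 1.02, 0.28, 0.05, 0.20 and 0.19. The 54 µg group of NRCWE-044 had 0.10, 0.64, 0.18, 0.16 and 0.18. In each of these groups 1 array stood apart above the other 4. The range was -0.03 to 0.30 at 54 µg of NRCWE-045, and -0.11 to 0.38 over the 3 groups at 18 µg, so that these lay within or close to the control range. The group means stood in the order NRCWE-043 at 54 µg (0.35 ± 0.38, SD, n = 5), NRCWE-044 at 54 µg (0.25 ± 0.22, n = 5), NRCWE-045 at 18 µg (0.15 ± 0.16, n = 3), NRCWE-045 at 54 µg (0.11 ± 0.12, n = 5), NRCWE-044 at 18 µg (0.11 ± 0.17, n = 6), NRCWE-043 at 18 µg (0.05 ± 0.15, n = 5) and control (-0.05 ± 0.25, n = 5), again with no step above the SD.

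Fcgr1 lay 0.40 above the controls at 54 µg of NRCWE-043 (SE 0.14; limma unadjusted p 0.00653 and adjusted p 0.685). Without replicate 1 of that group, the array at 1.02, the difference was 0.23. It lay 0.30 above at 54 µg of NRCWE-044 (0.02 to 0.59; limma adjusted p 0.804) and 0.17 above at 54 µg of NRCWE-045 (-0.12 to 0.45; limma adjusted p 1). In the mean of materials it was 0.29 at 54 µg (SE 0.11; limma adjusted p 0.765) and 0.16 at 18 µg (SE 0.11; limma adjusted p 0.999), and these were 0.19 and 0.06 without control replicate 2, the lowest control. Without that control the differences were also smaller by over 1.5 times at 54 µg of NRCWE-045 (0.07) and at 18 µg of each material (0.01 for NRCWE-043, 0.06 for NRCWE-044 and 0.11 for NRCWE-045), and it was 0.21 at 54 µg of NRCWE-044. With the scanner's processed signals the difference at 54 µg of NRCWE-043 was 0.69 and that of the mean of materials 0.48.

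Cx3cr1, the receptor for fractalkine, is high on patrolling monocytes and on many tissue macrophages. The controls had log2 ratios of 3.43, 3.09, 2.87, 3.60 and 3.43. At 54 µg they were 4.54, 3.22, 3.77, 3.27 and 4.36 for NRCWE-043. They were 4.41, 3.31, 3.92, 3.75 and 3.83 for NRCWE-045. Both groups spread from inside the control range to well above its top. For NRCWE-044 at 54 µg they were 3.49, 3.40, 3.78, 3.68 and 4.09. At 18 µg the values ran from 2.65 to 3.81 for NRCWE-043, from 3.21 to 3.79 for NRCWE-044 and from 3.19 to 3.82 for NRCWE-045, overlapping the controls. The 3 groups at 54 µg came first in the order of means (3.85, 3.83 and 3.69), then the 3 groups at 18 µg (3.56, 3.43 and 3.35) and the controls (3.29), with SDs of 0.24 to 0.61 that were larger than every step.

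The brightest Cx3cr1 probe lay 0.56 above the controls at 54 µg of NRCWE-045 (SE 0.23; limma unadjusted p 0.0212 and adjusted p 1), 0.55 above at 54 µg of NRCWE-043 (SE 0.23; unadjusted p 0.0242, adjusted p 0.837) and 0.40 above at 54 µg of NRCWE-044 (SE 0.23; adjusted p 0.924). In the mean of materials the difference was 0.50 at 54 µg (0.12 to 0.89; limma adjusted p 0.758) and 0.16 at 18 µg (-0.23 to 0.55; limma adjusted p 0.999), the latter 0.06 without control replicate 3. The other Cx3cr1 probe, with a mean lung signal of 261 against 1564, gave -0.00 at 54 µg (-0.36 to 0.35) and -0.23 at 18 µg (-0.59 to 0.14). The probes correlated over arrays at r = 0.74, and with slide means subtracted at 0.684, yet they placed the exposed groups differently against the controls; the mean of both was 0.25 at 54 µg. In the reference RNA the brightest probe was well above background on 20 of 34 arrays and the other on 3 of 34, so the ratios of both rest on a dim reference signal. The part of that dim signal in the difference was not tested.

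Ccr2, the receptor for the chemokines of the Ccl2 family, marks classical monocytes on their way into tissue. Its log2 ratios in the controls were 2.21, 1.65, 0.88, 1.84 and 1.00. Over the 6 exposed groups they ran from 0.52 to 2.46. The controls thus spanned most of the range of all 34 arrays, and no exposed group stood apart. Slides accounted for 68% of the variance of Ccr2, where the median of all tested units was 34.5%. Groups accounted for 5.03%, where that median was 16.1%. The mean of materials differed from the controls by 0.03 at 54 µg (-0.48 to 0.54; limma adjusted p 1) and by -0.19 at 18 µg (-0.71 to 0.33; limma adjusted p 0.999). The order of group means ran from 1.57 ± 0.49 (SD, n = 5) at 54 µg of NRCWE-045 to 1.28 ± 0.73 (n = 3) at 18 µg of the same material, with the controls in the third place, and every step was smaller than the SD. Ccr2 was well above background in the reference RNA on 0 of 34 arrays, and so its ratio to the reference is no measured fold; with the scanner's processed signals the direction at 54 µg turned (-0.17).

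Cd14, the co-receptor that hands lipopolysaccharide to Tlr4, is abundant in monocytes. It lay below the reference RNA on 33 of 34 arrays. The controls had log2 ratios of -0.83, -0.99, -0.68, -0.78 and -0.85. Exposure to 54 µg of NRCWE-043 gave 0.60, -0.71, -0.58, -0.54 and -0.91. Exposure to 54 µg of NRCWE-044 gave -0.34, -0.38, -0.93, -0.62 and -0.10, and 4 of these 5 lay above every control. The control group was the tightest of the 7 (SD 0.11), and the groups at 54 µg of NRCWE-043 and 18 µg of NRCWE-044 the widest (SD 0.59 and 0.38). At 18 µg the values ran from -0.98 to -0.07 for NRCWE-043, from -1.56 to -0.52 for NRCWE-044 and from -1.05 to -0.53 for NRCWE-045, and at 54 µg of NRCWE-045 from -0.98 to -0.27. The means stood at -0.43 and -0.48 for 54 µg of NRCWE-043 and NRCWE-044, -0.55 for 18 µg of NRCWE-043, -0.75 and -0.76 for 54 and 18 µg of NRCWE-045, -0.83 for the controls and -0.97 for 18 µg of NRCWE-044, with no step above the SD.

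Cd14 lay 0.40 above the controls at 54 µg of NRCWE-043 (-0.05 to 0.84; limma adjusted p 0.93), and 0.14 without replicate 1, the one array above the reference. At 54 µg of NRCWE-044 it lay 0.35 above (-0.10 to 0.79; limma adjusted p 0.936). Between the doses of NRCWE-044, the 54 µg group lay 0.49 above the 18 µg group (SE 0.21; limma unadjusted p 0.0246 and adjusted p 0.925). The mean of materials gave 0.28 at 54 µg (-0.09 to 0.64) and 0.07 at 18 µg (-0.30 to 0.44).

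**Figure D2:**
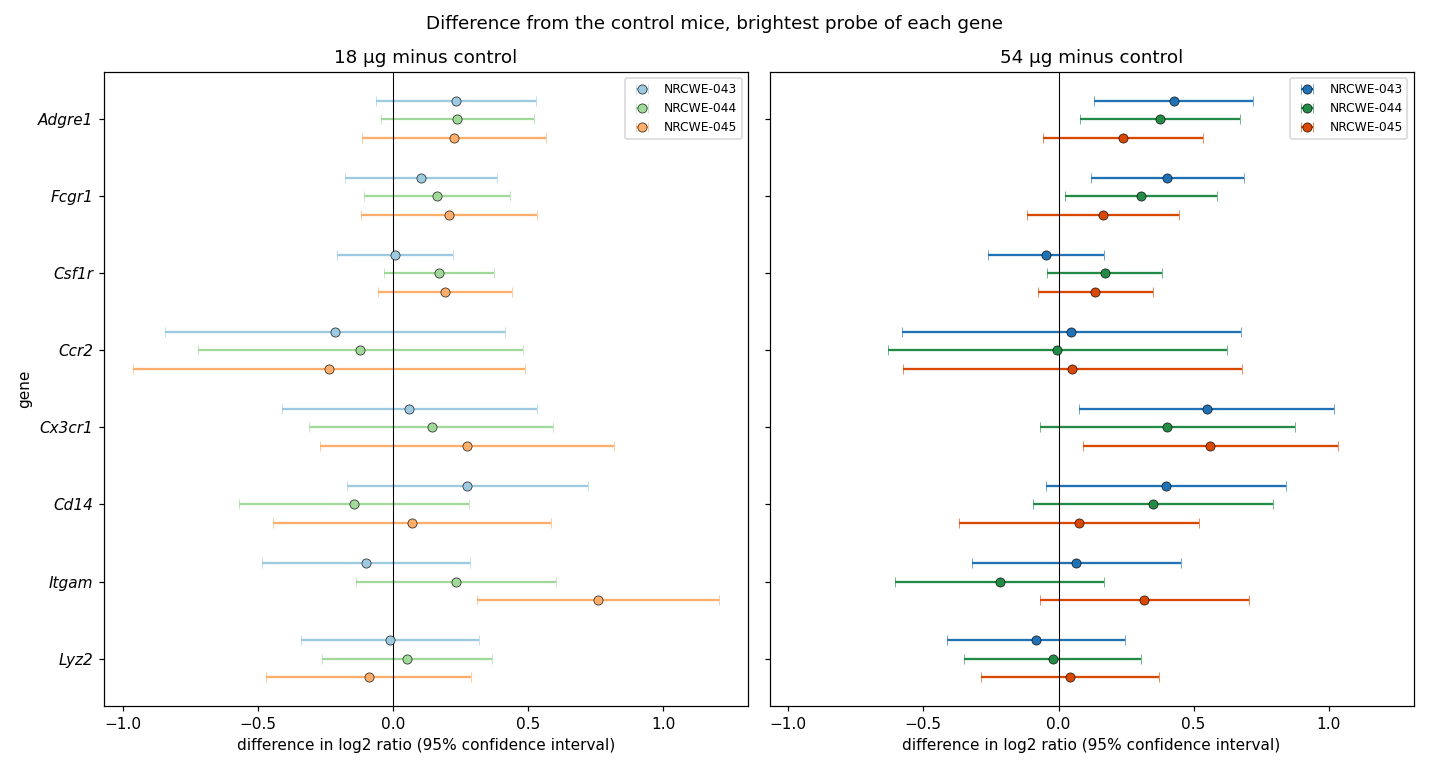
Difference in log2 ratio from the 5 control mice (horizontal axis, point and 95% confidence interval) for each gene (vertical axis), at 18 µg (left) and 54 µg (right) of the 3 materials (colours). At 54 µg the intervals of Adgre1 and Fcgr1 for NRCWE-043 and NRCWE-044 and those of Cx3cr1 for NRCWE-043 and NRCWE-045 leave out 0; at 18 µg Itgam for NRCWE-045 does.

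Itgam, the alpha chain CD11b of the integrin Mac-1, is found on monocytes, neutrophils and many macrophages. Values of the brightest of its 3 probes come first, with the doubt stated above about what this probe measures. It had log2 ratios of 1.84, 2.08, 2.27, 2.07 and 1.74 in the controls. At 18 µg of NRCWE-045 they were 2.92, 2.46 and 2.90. All 3 lay above every control, as did 3.17% of all units in that comparison. At 54 µg of NRCWE-044 they were 1.87, 1.53, 1.91, 1.70 and 1.91, all below the control mean. At 54 µg of NRCWE-045 they were 2.04, 2.28, 2.30, 2.27 and 2.70, and at 54 µg of NRCWE-043 2.15, 2.10, 1.69, 2.04 and 2.34. The widest group was 18 µg of NRCWE-043, whose 5 arrays ran from 1.15 to 2.64, and the 6 of NRCWE-044 at 18 µg ran from 1.67 through a median of 2.33 to 2.52. The means stood in the order 2.76 ± 0.26 (SD, n = 3) at 18 µg of NRCWE-045, 2.32 ± 0.24 (n = 5) at 54 µg of NRCWE-045, 2.23 ± 0.33 (n = 6) at 18 µg of NRCWE-044, 2.07 ± 0.24 (n = 5) at 54 µg of NRCWE-043, 2.00 ± 0.21 (n = 5) in controls, 1.90 ± 0.56 (n = 5) at 18 µg of NRCWE-043 and 1.78 ± 0.17 (n = 5) at 54 µg of NRCWE-044. The first step, 0.44, was the only one over all 8 genes that was larger than the SD of both neighbours.

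At 18 µg of NRCWE-045 the brightest Itgam probe lay 0.76 above the controls (SE 0.22; a 1.69-fold ratio; limma unadjusted p 0.00154 and adjusted p 0.276), and 0.68 to 0.91 with 1 array left out. NRCWE-043 minus NRCWE-045 at 18 µg gave -0.86 (SE 0.22; limma unadjusted p 0.000448 and adjusted p 0.062), the nearest that any of the 8 chosen probes came to the threshold. With slide as a random block it passed, at -0.91 (limma adjusted p 0.0249), and it passed as well without replicate 4 at 18 µg of NRCWE-043 (adjusted p 0.0065) and without replicate 1 at 18 µg of NRCWE-044 (0.0497); over all alternatives the adjusted p ran from 0.0065 to 0.469. The difference between NRCWE-044 and NRCWE-045 was -0.52 at 18 µg (limma unadjusted p 0.0189, adjusted p 0.647) and -0.53 at 54 µg (unadjusted p 0.00818, adjusted p 1), and that between 54 and 18 µg of NRCWE-044 was -0.45 (unadjusted p 0.0183, adjusted p 0.925).

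The 3 Itgam probes gave different pictures. The brightest had a mean lung signal of 29216, at the 97.8th percentile of all tested units, and the others had 317 and 141. Its correlation with them over the 34 arrays was 0.272 and -0.041, and 0.286 and 0.053 with slide means subtracted. At 18 µg of NRCWE-045 the second probe lay 0.38 above the controls (SE 0.12; limma unadjusted p 0.00408, adjusted p 0.319) and the third 0.03 (SE 0.10). At 54 µg of NRCWE-044 the second probe lay 0.26 above the controls (SE 0.11), opposite in sign to the brightest, at -0.22 (SE 0.19). In the mean of materials at 54 µg the second probe lay 0.18 above (0.00 to 0.36; limma unadjusted p 0.0485, adjusted p 0.883). The brightest probe also differed from every other member in how many genes it ran with: of 13066 named genes above background on all arrays, 48 correlated with it over 0.9 with slide means subtracted, and 0 did so with any of the other 7 genes. Nearest were Idua (r = 0.992), Hexim2 (0.987) and Mcidas (0.987), whose probes had mean lung signals of 22086, 34605 and 26762. At 18 µg of NRCWE-045 these 3 lay 0.74, 0.65 and 0.68 above the controls (SE 0.22 each), near the 0.76 of Itgam itself. The second probe was nearest to Lilra6 (0.807), Stfa2l1 (0.747) and Padi4 (0.722). Markers of liver moved with the same group. At 18 µg of NRCWE-045, 7 of 7 lay above the controls at an unadjusted limma p under 0.05. Of all units, 5.04% lay higher at that p. The mean difference of the liver markers from the control level was 0.87, 4.03 and 0.36 in replicates 1 to 3. In controls the liver markers ran from -0.16 to 0.23. Without replicate 2, where they were highest, the brightest Itgam probe lay 0.91 above the controls. In replicates 1 and 3 the liver markers still lay above the control range. The part of liver tissue in the Itgam difference was not tested.

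**Figure D3:**
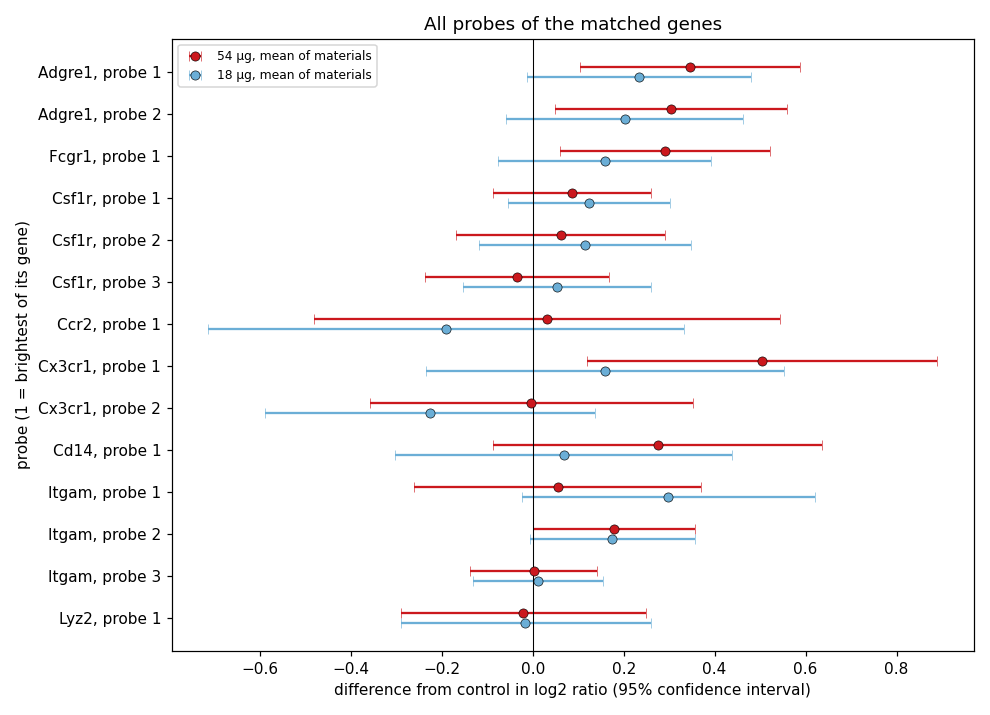
Difference from the controls in log2 ratio (horizontal axis, point and 95% confidence interval) for all 14 probes (vertical axis, numbered from the brightest of each gene), in the mean of the 3 materials at 54 µg (red) and 18 µg (blue). The 2 Adgre1 probes lie together at 0.35 and 0.31, while the Cx3cr1 probes lie at 0.50 and -0.00 at 54 µg.

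Csf1r, the receptor for the growth factors Csf1 and Il34 on which most macrophages depend, differed little between groups. The controls had log2 ratios of 1.78, 1.68, 1.53, 1.70 and 1.71. NRCWE-043 at 54 µg gave 1.75, 1.53, 1.21, 1.84 and 1.83, with both the lowest array of the study and arrays above every control. In the other exposed groups they ran from 1.37 to 2.09. The means went from 1.87 ± 0.17 (SD, n = 3) at 18 µg of NRCWE-045 through 1.85, 1.85, 1.82, 1.69 and 1.68 (controls) to 1.63 ± 0.26 (n = 5) at 54 µg of NRCWE-043, and no step exceeded the SD. The mean of materials lay 0.09 above the controls at 54 µg (-0.09 to 0.26; limma adjusted p 1) and 0.12 at 18 µg (-0.05 to 0.30; limma adjusted p 0.999). NRCWE-043 minus NRCWE-044 at 54 µg gave -0.22 (SE 0.10; limma unadjusted p 0.0467, adjusted p 1), and the difference was -0.11 without replicate 3 of NRCWE-043. The other 2 Csf1r probes gave 0.06 and -0.03 at 54 µg. Their mean lung signals were 850 and 369, against 23028 for the brightest. They correlated with the brightest at r = 0.385 and -0.061 as measured, and at 0.765 and 0.319 with slide means subtracted.

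Lyz2, lysozyme, is expressed by monocytes and macrophages and also by alveolar type 2 cells of the lung epithelium. The controls had log2 ratios of 4.77, 4.66, 4.89, 5.04 and 5.26, and the exposed groups ran from 4.27 to 5.46. The values followed the slide: the 4 arrays of slide 5 lay between 5.16 and 5.46 and the 8 of slide 1 between 4.62 and 4.83, without overlap. Slides accounted for 69.9% of the variance and groups for 4.27% (medians of all tested units 34.5% and 16.1%). The mean of materials differed from the controls by -0.02 at 54 µg (-0.29 to 0.25; limma adjusted p 1) and by -0.02 at 18 µg (-0.29 to 0.26; limma adjusted p 0.999), so changes of more than 0.29 in either direction lay outside these intervals. The group means stood between 4.98 and 4.83 with the controls in the third place, and no step exceeded the SD. The direction of the Lyz2 differences turned with median centring (0.08 at 54 µg).

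Each exposed array was also set against the mean of the controls on its own slide, which left 11 arrays at 54 µg and 9 at 18 µg. For Cx3cr1, 11 of 11 arrays at 54 µg lay above that mean, by 0.16 to 1.28, as they did for 1.36% of all units, and 6 of 9 at 18 µg (30.7% of all units had at least 6). For Adgre1 the counts were 10 of 11 and 8 of 9, with medians of 0.30 and 0.21, and for Fcgr1 10 of 11 and 8 of 9, with medians of 0.21 and 0.19; at least 10 of 11 was reached by 4.31% of all units and at least 8 of 9 by 5.9%. Slide 1 held 2 controls, and above every control of their slide lay 9 of 11 and 5 of 9 arrays for Adgre1, 8 of 11 and 6 of 9 for Fcgr1, and 11 of 11 and 6 of 9 for Cx3cr1. The other Cx3cr1 probe lay above the slide's control mean on 6 of 11 and 4 of 9. The dimmer Adgre1 probe did so on 8 of 11 and 7 of 9. At 54 µg this Adgre1 probe had mean differences of 0.48 and 0.43 on slides 1 and 2. On slides 3 and 5 they were 0.02 and -0.06. Cd14 (6 of 11), Itgam (6 of 11) and Lyz2 (4 of 11) were mixed at 54 µg, while Csf1r and Ccr2 lay above on 9 of 11, by medians of 0.11 and 0.15, where 10.2% of all units had at least 9. Fitted with slide as a block, the mean of materials at 54 µg lay 0.55 above the controls for Cx3cr1 (limma adjusted p 0.211) and 0.28 for Adgre1 (adjusted p 0.306). The arrays of slides 2, 3 and 5 were set against a single control each.

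**Figure D4:**
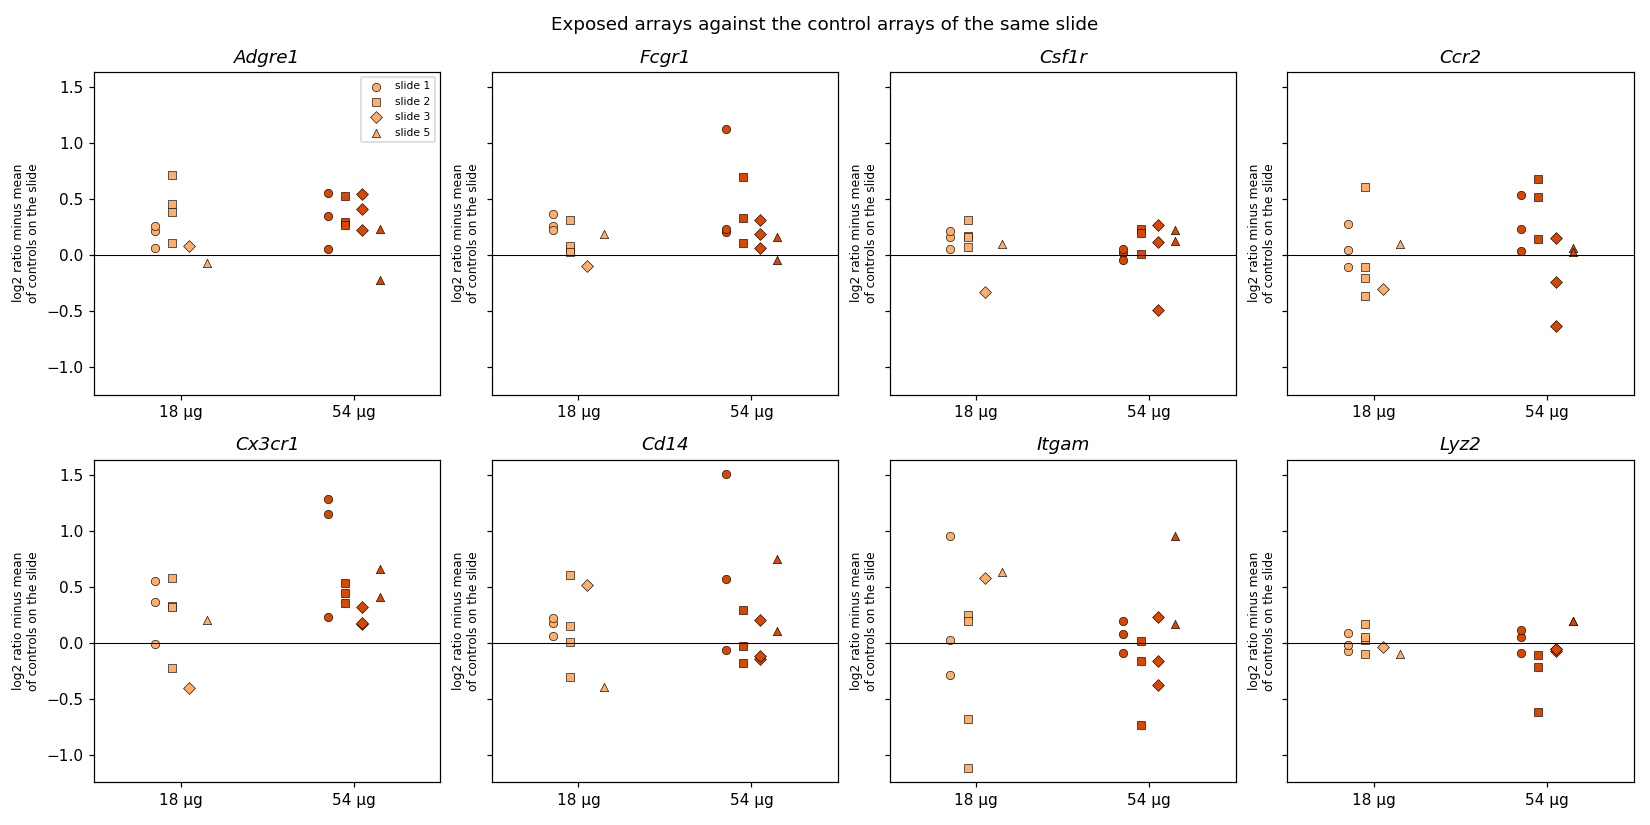
Log2 ratio of each exposed array minus the mean of the controls on its own slide (vertical axis), for 9 arrays at 18 µg and 11 at 54 µg (horizontal axis) on the 4 slides that held controls (marker shapes). All 11 Cx3cr1 points at 54 µg lie above 0, between 0.16 and 1.28, while Lyz2 points lie on both sides.

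The members' ratios were also compared with each other over the 34 arrays with each slide's mean subtracted, as a description; arrays share slides and groups. Fcgr1 and Cx3cr1 ran together most closely (r = 0.664), then Adgre1 and Fcgr1 (0.604), Ccr2 and Cx3cr1 (0.537), Fcgr1 and Ccr2 (0.536) and Adgre1 and Cx3cr1 (0.469). Adgre1 and Ccr2 were the weakest pair of these 4 genes (0.322). Without slide means subtracted these pairs had r = 0.51, 0.546, 0.513, 0.377 and 0.277 in the order given, and Adgre1 and Ccr2 -0.011. With slide means subtracted the ratios of the 4 genes therefore rose and fell partly together. The group means of Ccr2, however, did not lie above the controls at both doses. Replicate 1 at 54 µg of NRCWE-043 was the highest array of all 34 for Fcgr1 (1.02), Cx3cr1 (4.54), Ccr2 (2.46) and Cd14 (0.60). The part of this array in the correlations was not tested. Adgre1 and Itgam ran against each other (-0.438), as did Csf1r and Cd14 (-0.372), and Lyz2 correlated with no other member beyond 0.185. The genes whose ratios were most like Adgre1, among 13066 named genes, were Rab32 (0.807), Ctss (0.805), which encodes the lysosomal protease cathepsin S, and Cd84 (0.792). Those most like Fcgr1 were Ifi209 (0.88), Zbp1 (0.87) and Slfn8 (0.869). For Cx3cr1 they were Tlr1 (0.757), Slfn8 (0.748) and Ifi204 (0.726), and for Cd14 the acute phase gene Saa3 (0.839), Noxo1 (0.827) and the chemokine gene Ccl9 (0.813). For Ccr2 they were the killer cell lectin receptors Klrb1a (0.75) and Klrd1 (0.744) and Fbxw17 (0.734), for Csf1r Snx32 (0.828), Zfp414 (0.789) and Fbxw5 (0.778), and for Lyz2 the surfactant gene Sftpc (0.737), Sfta2 (0.712) and Nme1 (0.705). Some of these likenesses were low without slide means subtracted. Then r was 0.114, 0.29 and -0.018 for Snx32, Zfp414 and Fbxw5, 0.277 for Fbxw17, 0.473 for Nme1 and 0.537 for Cd84. For the other neighbours named here it was 0.653 to 0.868. Of these neighbours, Ctss lay 0.61 (SE 0.17), Slfn8 0.59 (SE 0.17) and Saa3 1.23 (SE 0.42) above the controls in the mean of materials at 54 µg. Others lay near the control level, among them Snx32 (-0.01), Sftpc (0.03) and Nme1 (-0.05). The neighbours were chosen by their likeness to the members on these same arrays, so their differences are no separate support.

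Genes that work with the members were read from lists. By limma, 0 genes of these lists were called in the mean of materials at either dose. Unadjusted counts are given with each list. Of all units, 49.3% lay above the controls at 54 µg and 50.3% at 18 µg. At an unadjusted limma p under 0.05, 2.85% of all units lay higher at 54 µg. Of 11 ligands and growth factors of the member receptors, 8 lay above the controls in the mean of materials at 54 µg and 5 at 18 µg, with medians of 0.20 and -0.06; 1 had an unadjusted p under 0.05 at 54 µg. The Ccr2 ligands lay higher, Ccl2 by 0.45 (SE 0.25), Ccl7 by 0.65 (SE 0.33), Ccl12 by 0.50 (SE 0.25) and Ccl8 by 0.36 (SE 0.36), and C3, the source of the Mac-1 ligand iC3b, by 0.41 (SE 0.18; limma unadjusted p 0.0335, adjusted p 0.844). The fractalkine gene Cx3cl1 (0.00) and the Csf1r ligands Csf1 (-0.01) and Il34 (-0.01) lay at the control level. Icam1 lay lowest of the list, at -0.21 (SE 0.16), and was below the controls in every exposed group. The mean of this list was 1.12 above the control level on replicate 1 at 54 µg of NRCWE-043, where the other arrays of that group reached down to -0.01.

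Of 14 genes of Csf1r signalling and of the lineage's transcription factors, 12 lay above the controls at 54 µg and 13 at 18 µg, with medians of 0.18 and 0.07, and 5 had an unadjusted p under 0.05 at 54 µg. The lowest p belonged to Dok2, an adaptor that restrains signalling in myeloid cells (0.40, SE 0.09; limma unadjusted p 0.000135, adjusted p 0.382). Tyrobp, the adaptor DAP12, lay 0.32 higher (SE 0.12; unadjusted p 0.0124, adjusted p 0.758). Spi1, which encodes PU.1, lay 0.28 higher (SE 0.14) and Irf8, a factor of monocyte development, 0.20 (SE 0.08), while Klf4 stood at -0.24 (SE 0.17). Of 9 partners of the Fc receptors, 7 lay above the controls at 54 µg (median 0.23; 1 at an unadjusted p under 0.05), among them the kinases Syk (0.41, SE 0.12; limma unadjusted p 0.00188, adjusted p 0.55) and Fgr (0.33, SE 0.17). Of 9 tested partners of Cd14 and the toll-like receptors, 6 lay above (median 0.04; 2 at that p), with Ly86 at 0.56 (SE 0.14; limma unadjusted p 0.000519, adjusted p 0.451) and Tlr2 at 0.35 (SE 0.12), and Tlr4 itself at -0.07 (SE 0.09). Of 8 partners of the beta 2 integrins, 5 lay above (median 0.09; 2 at that p), with the common chain Itgb2 at 0.45 (SE 0.15) and the CD11c chain Itgax at 0.38 (SE 0.12).

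Ligands other than C3 and Ccl7, and Spi1, Irf8, Klf4, Tlr4, the C1q genes and Lyve1, are named here after their values were seen. Other markers of the same cells lay on both sides of the controls at 54 µg, with more above than below in each list. Of 10 tested markers of classical monocytes, 8 lay above the controls at 54 µg (median 0.23) and 10 at 18 µg (median 0.14), with Ifitm6 at 0.48 (SE 0.22) and Plac8 at 0.36 (SE 0.19). Of 12 markers of patrolling monocytes 8 lay above at 54 µg (median 0.21) and 5 at 18 µg (median -0.05), with Spn at 0.38 (SE 0.14) and Pou2f2 at 0.36 (SE 0.17). Of 17 tested markers of interstitial macrophages 11 lay above at 54 µg (median 0.15) and 7 at 18 µg (median -0.06). The members of that list did not go one way: Ms4a7 (0.605, SE 0.21) and Cd72 (0.60, SE 0.17) lay highest, the complement genes C1qa, C1qb and C1qc lay at 0.18, 0.19 and 0.15, and Lyve1, a marker of the macrophages along vessels, lay at -0.39 (SE 0.28). Of 16 markers of alveolar macrophages, the other macrophage of the lung, 10 lay above at 54 µg (median 0.08) and 8 at 18 µg (median -0.01), among them the cholesterol exporter Abcg1 at 0.32 (SE 0.12) and Il1rn at 0.14 (SE 0.06). In the same comparison, where 49.3% of all units lay above the controls, 8 of 8 markers of B cells (median 0.26), 9 of 9 of T cells (median 0.19) and 9 of 9 of natural killer cells (median 0.16) did so, with Ms4a1 at 0.74 (SE 0.24), Lck at 0.54 (SE 0.17) and Eomes at 0.34 (SE 0.13). Of 10 dendritic cell markers 6 lay above (median 0.15) and 3 had an unadjusted p under 0.05, with Batf3 at 0.40 (SE 0.12) and Irf4 at 0.38 (SE 0.13), and 10 of 10 endothelial markers lay below them (median -0.26, with Ednrb at -0.48, SE 0.15). Their part in the members' values was not tested.

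The summed levels of these lists, as the mean log2 difference of a list's tested genes from their control mean on each array, overlapped between groups. For endothelial markers they ran from -0.26 to 0.16 in controls, -0.75 to 0.12 over the groups at 54 µg and -0.69 to 0.09 over those at 18 µg. For B cell markers they ran from -0.40 to 0.20 in controls, -0.25 to 0.63 at 54 µg and -0.29 to 1.17 at 18 µg. For natural killer cell markers they ran from -0.30 to 0.32 in controls, -0.22 to 0.55 at 54 µg and -0.51 to 0.53 at 18 µg. For T cell markers they ran from -0.19 to 0.22 in controls, -0.13 to 0.54 at 54 µg and -0.22 to 0.41 at 18 µg. Heart muscle markers, of which 1 of 7 lay above the controls at 54 µg and 0 of 7 at 18 µg, ran from -1.01 to 0.96 in controls and from -2.11 to 2.54 at 54 µg, and liver markers from -0.16 to 0.23 in controls and -0.34 to 1.55 at 54 µg. For interstitial macrophage markers the range was -0.34 to 0.19 in controls and -0.19 to 0.47 at 54 µg. Whether the differing share of other tissues in these pieces bears on the members was not tested.

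**Figure D5:**
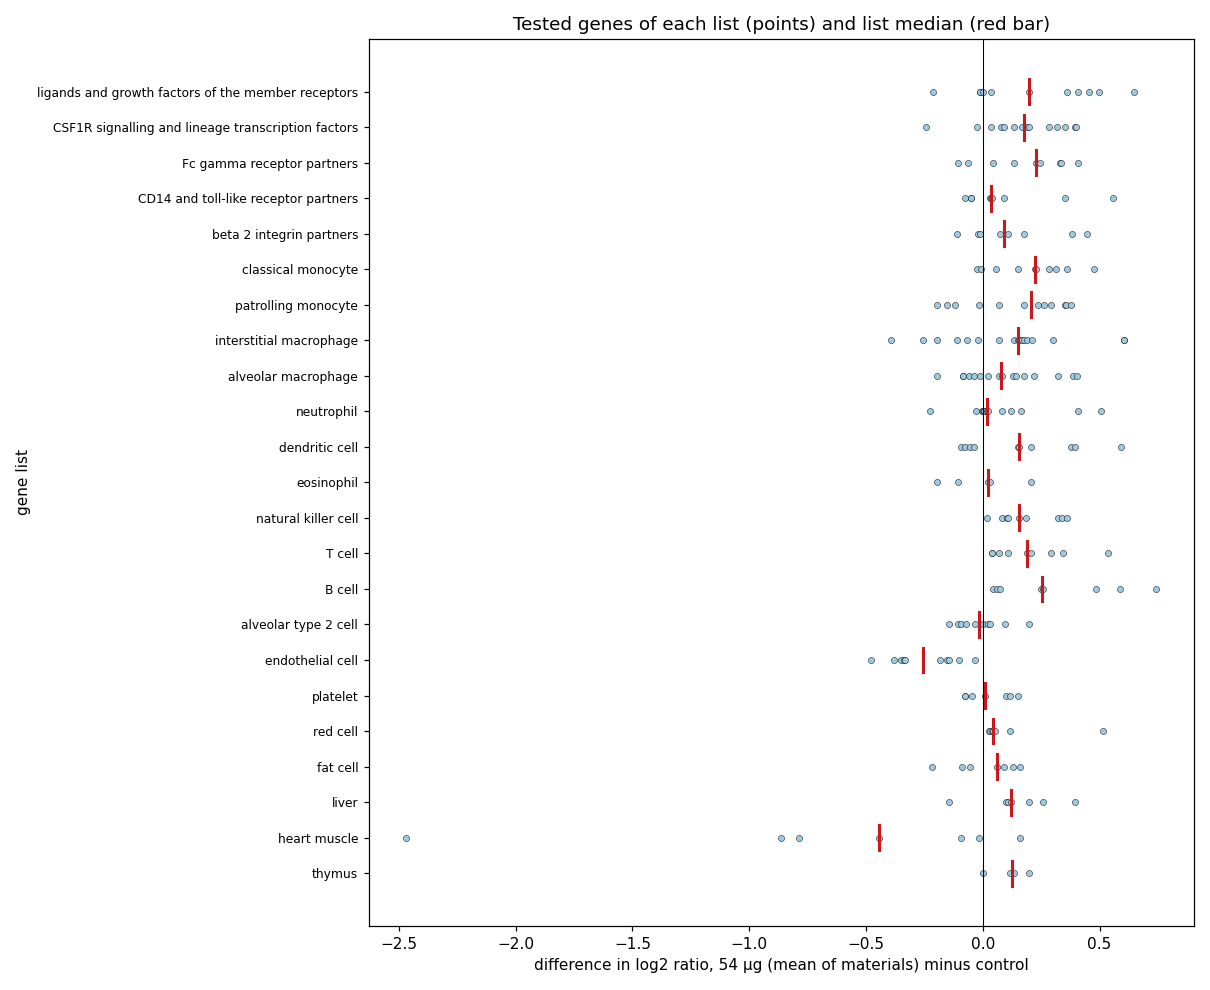
Difference in log2 ratio between the mean of the 3 materials at 54 µg and the controls (horizontal axis) for each tested gene (points) of 23 lists (vertical axis), with the median of the list as a red bar. The endothelial list lies wholly below 0 (median -0.26) and the B cell list wholly above it (median 0.26); the monocyte and interstitial macrophage lists have medians of 0.23, 0.21 and 0.15.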

How the data were processed

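The members and gene lists were chosen with earlier results of these data known. Lung RNA (Cy5) and a common reference RNA (Cy3) were measured on 34 two-colour arrays, taken as 1 per mouse, with no dye swap. The deposited scanner intensities came from Agilent Feature Extraction 11.0.1.1, per the file headers, as median spot and local background intensity with quality flags; the scanner software's processed signals, background-subtracted and dye-normalized per the file headers, served as an alternative. The authors' deposited series table holds log2 ratios of Cy5 over Cy3, whose array medians ran from -0.0414 to -0.004061; how it was made is not given in the sources used here, and it correlated with the ratios computed here at 0.994 to 0.9978 per array.

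From the median intensities, ratios were computed in R 4.3.3 with limma 3.58.1 (statmod 1.5.0, the data.table package, version 1.17.8): normexp background correction with an offset of 50, loess within each array, and weight 0 for control spots and outlier flags. Each array had 62976 spots, of which 3671 were control spots, and 55681 distinct probes, of which 27235 were named through their RefSeq accession (20660 genes) and 28446 were not. The brightest probe stood for a gene, and units well above background in lung on at least 3 arrays were kept. All 7 groups entered 1 limma fit without a slide term, with 17 contrasts and an F test. With slide as a random block, the consensus correlation of arrays within a slide was 0.294. The p-values were adjusted by Benjamini-Hochberg over the 29304 units of each contrast, at a threshold of 0.05. The procedure was tested on simulated data with independent noise on each array and no slide effect. It therefore cannot show how the fit handles arrays that share a slide. No pair of arrays was identical.

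Named genes were all members, the 2 genes of each list with the smallest unadjusted p at 54 µg averaged over materials, and the 3 genes most like each member; other list genes were picked after their values were seen. Alternatives covered background correction, normalization, the dim-probe filter, slide as a fixed or random block, the probe chosen, the samples fitted and each array left out; the mean of all probes of a gene was added after seeing the data. Promoter sequences of 6 of the 9 members were taken from RefSeq (GRCm38.p6) and searched. Those of Adgre1, Csf1r and Cd14 were not searched.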

Additional observations from a re-analysis of the deposited data

Results flagged for a closer look

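For the 8 genes in the groups of 4 or more arrays, 48 combinations of gene and group were examined for an array far from the rest, and 3 of them (6.25%) held one; chance alone marks about 1 in 20. Fcgr1 was 1.02 in replicate 1 at 54 µg of NRCWE-043, with the nearest array of that group at 0.28. Cd14 was 0.60 in the same replicate, with the nearest array at -0.54. Fcgr1 was 0.64 in replicate 2 at 54 µg of NRCWE-044, with the nearest array at 0.18.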

How the results depend on the processing

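Over 72 differences of single genes, 3244 values were computed under the alternatives; 3137 kept their direction and side of the threshold, 104 had the opposite sign and 3 passed the threshold where the reported value did not. All differences that took the opposite sign somewhere were at most 0.535 in size. No called result was lost, since none of the genes was called. Between materials at the same dose, 1 member (Itgam, NRCWE-043 against NRCWE-045 at 18 µg) was called with slide as a random block; with 1 array left out the count was 0 to 1, and for the F test also 0 to 1. The causes of the sign changes were not tested. With the scanner's processed signals, Ccr2 against the controls was -0.413 and -0.024 at 54 µg of NRCWE-043 and NRCWE-045 and -0.174 in the mean of materials at 54 µg, Lyz2 was 0.026 at 18 µg of NRCWE-043, 0.036 at 54 µg of NRCWE-044 and 0.024 in the mean of materials at each dose, and Cx3cr1 between 54 and 18 µg of NRCWE-043 was -0.127. With median centring, Lyz2 was 0.111 and 0.025 at 18 and 54 µg of NRCWE-043, 0.041 at 54 µg of NRCWE-044, 0.008 at 18 µg of NRCWE-045, and 0.116 and 0.077 in the mean of materials at 18 and 54 µg; Itgam was 0.023 at 18 µg and Csf1r 0.032 at 54 µg of NRCWE-043, and at NRCWE-044 Cd14 was 0.006 at 18 µg and Ccr2 0.004 at 54 µg. With the authors' deposited table, Lyz2 was 0.003 at 18 µg of NRCWE-043 and 0.005 at 54 µg of NRCWE-044. With slide as a block, Lyz2 was 0.015, -0.031 and 0.042 at 18 µg of the 3 materials in the order of their numbers and 0.009 in their mean, and Ccr2 was 0.088 and 0.125 at 18 and 54 µg of NRCWE-044. With slide as a random block, Lyz2 was 0.004 and -0.005 at 18 µg of NRCWE-043 and NRCWE-044, and Ccr2 0.027 and 0.094 at 18 and 54 µg of NRCWE-044. With the next brightest probe, Cx3cr1 was -0.148, -0.244 and -0.287 at 18 µg of the 3 materials in the order of their numbers, -0.179 at 54 µg of NRCWE-044, and -0.003 and -0.226 in the mean of materials at 54 and 18 µg; Itgam was 0.050 at 18 µg of NRCWE-043, 0.261 at 54 µg of NRCWE-044, 0.168 between the doses of NRCWE-044 and 0.119 between NRCWE-044 and NRCWE-045 at 54 µg. Without the control titled NRCWE-043, Csf1r was -0.030 and Cx3cr1 -0.042 at 18 µg of NRCWE-043, and Ccr2 was -0.111 and -0.109 at 54 µg of NRCWE-043 and NRCWE-045 and -0.128 in the mean. With the mean of all probes of a gene, chosen after seeing the data, Cx3cr1 was -0.043, -0.051 and -0.006 at 18 µg of the 3 materials in the order of their numbers and -0.033 in their mean, and Itgam 0.035 at 54 µg of NRCWE-044. With 1 array left out, the sign was not stable for these differences from the controls: Ccr2 ran from -0.177 to 0.221 at 54 µg of NRCWE-043, -0.279 to 0.054 at 18 µg and -0.163 to 0.169 at 54 µg of NRCWE-044, -0.582 to 0.146 at 18 µg and -0.109 to 0.224 at 54 µg of NRCWE-045, and -0.128 to 0.205 in the mean at 54 µg. Lyz2 ran from -0.077 to 0.075 at 18 µg and -0.209 to 0.059 at 54 µg of NRCWE-043, -0.014 to 0.138 at 18 µg and -0.162 to 0.063 at 54 µg of NRCWE-044, -0.08 to 0.128 at 54 µg of NRCWE-045, and -0.083 to 0.069 and -0.088 to 0.064 in the mean at 18 and 54 µg. Csf1r ran from -0.031 to 0.087 at 18 µg and -0.097 to 0.059 at 54 µg of NRCWE-043, and Cx3cr1 from -0.055 to 0.237 at 18 µg of NRCWE-043. Itgam ran from -0.285 to 0.089 at 18 µg and -0.003 to 0.159 at 54 µg of NRCWE-043 and -0.01 to 0.123 in the mean at 54 µg, and Cd14 from -0.043 to 0.218 at 18 µg and -0.045 to 0.133 at 54 µg of NRCWE-045. No paired analysis was possible because the groups share no replicate numbers in the labels; slides, which the groups do share, entered as a block and in the comparison within slides. Precision is limited by groups of 3 to 6 mice, by the single dye orientation, and, for Ccr2 and Cx3cr1, by a reference signal near background.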
